A study of Mus musculus with 9 samples.

Results

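The genes described here are 9 markers of cholangiocytes, the epithelial cells that line the bile ducts, and of the ductular reaction: Krt7, Krt19, Krt23, Epcam, Spp1, Sox9, Cd24a, Cldn4 and Cldn7. They were chosen by name, with earlier results of these data known. Of the 9, 8 were among the 16755 genes of the RNA-seq table. The expression of Cldn4 was not analysed here. The mice were C57BL/6 males (C57BL/6J in the study's methods) carrying Scd2 alleles in which the third exon is floxed (Scd2f/f), and liver RNA was sequenced from 3 samples in each of 3 groups, 9 in all. The first group was untreated Scd2f/f mice. The second was Scd2f/f mice given diethyl nitrosamine (DEN), a hepatic carcinogen, at 10 mg/kg when 2 weeks old, followed by a Western alcohol diet (WAD) from 6 weeks of age, for 4 months by the sample labels and for longer by the study's methods. The third was Scd2f/f;Col1a1-Cre mice (Scd2f/f;CC, or CC) on the same regimen. In these mice the Cre recombinase is driven by the Col1a1 promoter, so recombination is directed to Col1a1-expressing cells such as activated hepatic stellate cells and portal fibroblasts, and Scd2 of other cells is left in place where they do not express Col1a1. The study describes the tissue of the treated mice as tumor-adjacent liver (TAL), which lacked visible tumors but held microscopic ones, and its RNA methods call it NTL. There was no group of untreated CC mice, so an effect of the genotype without DEN and WAD could not be measured.

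Cholangiocytes express keratins that hepatocytes lack, together with epithelial adhesion proteins and tight junction claudins. In injured liver, bile duct cells and hepatocyte-derived progenitors multiply and form irregular ductules, a response called the ductular reaction, and the genes studied here are the usual markers of these cells. Macrophages, stellate cells, injured hepatocytes or tumor cells can also express some of Spp1, Sox9, Cd24a and Krt23. Whether Krt7, Krt19 and Epcam were limited to bile duct cells in this tissue was not tested. In bulk liver RNA, fewer cells of a type and less RNA per cell cannot be told apart.

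Each value below is the authors' mean of upper-quartile-normalized gene counts in a group, called the normalized count. No values of single samples were used. The spread between replicates is therefore unknown, no test could be run, and a gene is counted as higher or lower only when the means differed at least 2-fold. Without the spread, such a count is a description of the means and does not show that the groups differed. The depth of the samples is also unknown. The targeted gene, Scd2, had a normalized count of 2.46 in untreated Scd2f/f liver, 6.47 in Scd2f/f TAL and 1.87 in CC TAL, which was 3.46-fold lower in CC than in Scd2f/f TAL. The read counts cover the whole gene, so they do not isolate the floxed exon.

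The table of means showed a split among the markers. Between Scd2f/f and CC TAL, 6 of the 8 markers were at least 2-fold lower in CC and none was at least 2-fold higher, against 4.07% of all 16755 genes lower and 1.82% higher. The 6 were Krt7, Krt19, Epcam, Spp1, Cd24a and Cldn7, while Krt23 and Sox9 were not among them. The median log2 ratio of the 8 markers was -1.74, beside 0 over all genes. Because the markers were chosen with earlier results known, these shares do not test whether they stand out from other genes. Many genes with low counts pass a 2-fold limit, and 9.44% of the 4408 genes under a normalized count of 1 in every group were lower in CC, compared with 2.15% of the 12347 genes that reached 1 in a group. Of the 6 lower markers, Krt7, Krt19 and Cldn7 were under 1 in all 3 groups. After adding 1 to all means, 2 of the 8 markers, Spp1 and Cd24a, were still at least 2-fold lower in CC, with log2 ratios of -1.54 and -1.27, against 0.507% of all genes at that setting.

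Between untreated and treated Scd2f/f liver, 3 of the 8 markers, Krt23, Cd24a and Cldn7, were at least 2-fold higher with DEN and WAD and none was lower, against 9.37% and 4.69% of all genes. The median log2 ratio of the markers was 0.38, beside 0.04 over all genes. Between untreated liver and CC TAL, 1 marker, Krt23, was at least 2-fold higher and 4 markers, Krt7, Krt19, Epcam and Spp1, were lower, against 6.41% and 4.64% of all genes, with a median log2 ratio of -1.34 beside 0.05. The 3 comparisons share their groups, so they are not independent of each other.

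**Figure D1:**
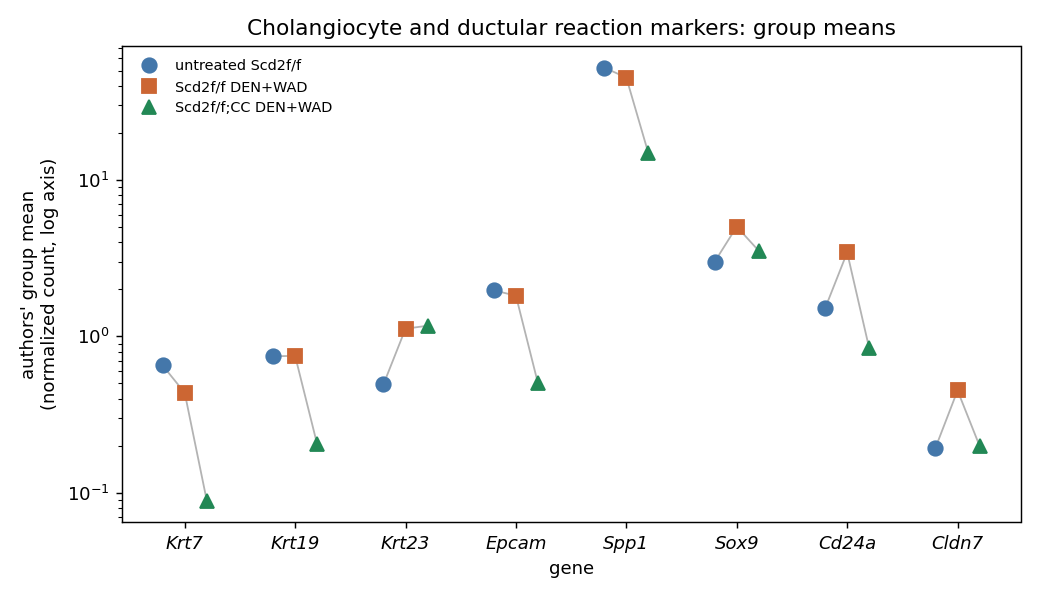
Authors' mean normalized count (log axis) of each of the 8 markers in untreated Scd2f/f liver (circles), Scd2f/f TAL after DEN and WAD (squares) and Scd2f/f;CC TAL after DEN and WAD (triangles), without error bars because only means were analysed. The triangles of Krt7, Krt19, Epcam, Spp1 and Cd24a lie below both other symbols, and those of Krt23 lie level with the squares.

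The type I and type II keratins build the intermediate filaments of epithelial cells, and Krt7 and Krt19 are the keratins used to stain bile ducts. Krt7 (chromosome 15, 101411043 to 101430314, plus strand) had a normalized count of 0.652 in untreated liver, 0.436 in Scd2f/f TAL and 0.0892 in CC TAL. Krt7 was thus 4.89-fold lower in CC than in Scd2f/f TAL and 7.31-fold lower than in untreated liver. These ratios of low means depend on the pseudocount, and with 0.1 added to each mean the log2 ratios of -2.29 and -2.87 became -1.50 and -1.99. Only 0.370% of all genes had a ratio of CC to Scd2f/f TAL as low as that of Krt7 or lower. The mean of Krt7 was above that of 25.6% of genes in untreated liver, 18.1% in Scd2f/f TAL and 3.10% in CC TAL. Exons of Krt7 overlap those of Gm671, a gene that was not analysed here, and the counting was not stated to use strand, so reads of the pair may be mixed.

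Krt19 (chromosome 11, 100140810 to 100148666, minus strand) had means of 0.746 in untreated liver, 0.751 in Scd2f/f TAL and 0.204 in CC TAL. The untreated and treated Scd2f/f means were nearly the same, with a ratio of 1.01, and the CC mean was 3.68-fold below that of Scd2f/f TAL and 3.66-fold below that of untreated liver. Krt19 differed in this from Krt23 (chromosome 11, 99477974 to 99493138, minus strand), a keratin induced in stressed hepatocytes and in ductular cells. Krt23 had means of 0.493, 1.12 and 1.17 in the same order. It was 2.27-fold higher in Scd2f/f TAL and 2.37-fold higher in CC TAL than in untreated liver, and the TAL means of the genotypes differed by a ratio of 1.04.

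Epcam (chromosome 17, 87635979 to 87651107, plus strand) encodes a homophilic adhesion protein of the biliary surface. Its normalized count was 1.97 in untreated liver, 1.82 in Scd2f/f TAL and 0.5 in CC TAL. The CC mean was 3.64-fold lower than that of Scd2f/f TAL and 3.94-fold lower than that of untreated liver, while the means of both Scd2f/f groups were close. Cd24a (chromosome 10, 43578284 to 43584266, plus strand) encodes a small glycosylated surface protein of progenitor cells, tumor cells and B cells. Its normalized count was 1.51 in untreated liver, 3.44 in Scd2f/f TAL and 0.838 in CC TAL. Cd24a was 2.28-fold higher in Scd2f/f TAL than in untreated liver, and CC TAL was 4.11-fold below Scd2f/f TAL and 1.80-fold below untreated liver.

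Cldn7 (chromosome 11, 69964779 to 69967886, plus strand) encodes a claudin of the tight junction and the lateral membrane of epithelia. Its normalized count was 0.194 in untreated liver, 0.451 in Scd2f/f TAL and 0.199 in CC TAL. The Scd2f/f TAL mean was 2.32-fold above the untreated mean and 2.27-fold above the CC mean, and CC TAL and untreated liver were level, with a ratio of 1.03. The mean of Cldn7 in Scd2f/f TAL was higher than that of 18.6% of genes.

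Spp1 (chromosome 5, 104435118 to 104441051, plus strand) encodes osteopontin, a secreted matrix glycoprotein made by cholangiocytes, activated stellate cells and macrophages. Its normalized count was 52.3 in untreated liver, 45.1 in Scd2f/f TAL and 14.8 in CC TAL. The CC mean was 3.05-fold lower than that of Scd2f/f TAL and 3.53-fold lower than that of untreated liver. Spp1 was the highest of the 8 markers in every group, and its mean in Scd2f/f TAL was above that of 90.4% of genes. An overlapping transcript, Gm42793, had means of 0.0547, 0.118 and 0.0458, far below those of Spp1.

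Sox9 (chromosome 11, 112782224 to 112787761, plus strand) encodes the transcription factor that marks biliary and progenitor cells and is also turned on in injured hepatocytes and stellate cells. Its normalized count was 3.0 in untreated liver, 5.03 in Scd2f/f TAL and 3.52 in CC TAL. The Scd2f/f TAL mean was 1.68-fold above the untreated mean, and the CC mean was 1.43-fold below that of Scd2f/f TAL and 1.17-fold above that of untreated liver. None of these ratios reached 2-fold, although that of Scd2f/f TAL to untreated liver did (log2 ratio 1.06) when the means were scaled to their sum over all genes. Of all genes, 11.4% had a ratio of CC to Scd2f/f TAL as low as that of Sox9 or lower.

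**Figure D2:**
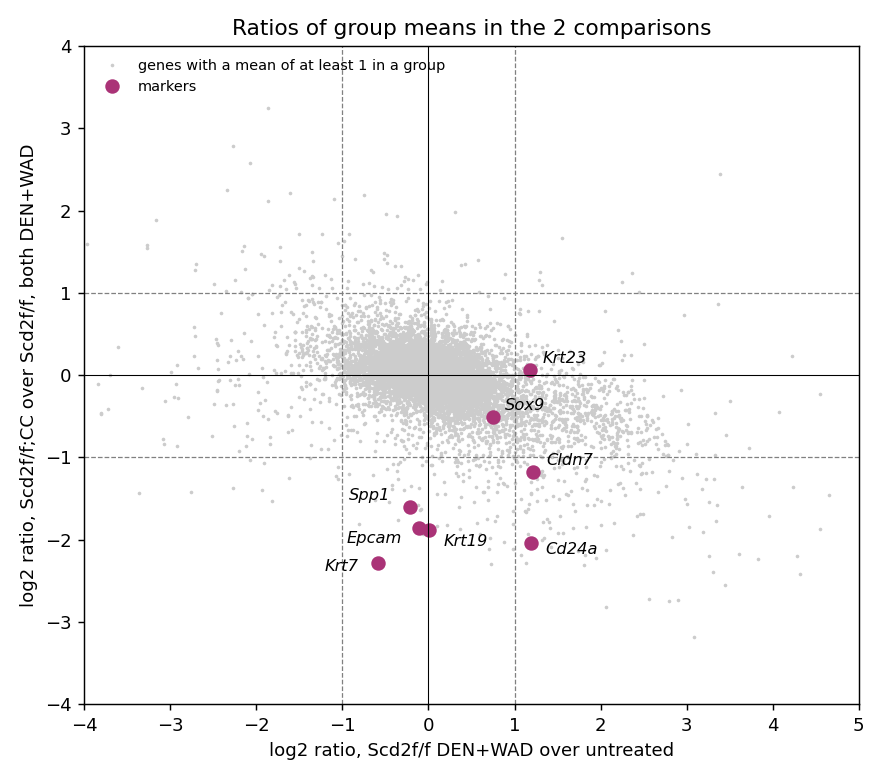
Log2 ratio of means of DEN and WAD over untreated Scd2f/f liver (x axis) against log2 ratio of Scd2f/f;CC over Scd2f/f TAL (y axis), with 12347 genes that reached a mean of 1 in a group in grey (40 of them lie outside the axes), the 8 markers in purple, and dashed lines at 2-fold. The Scd2f/f TAL mean enters both axes, and 6 markers lie below the lower horizontal line while Krt23 and Sox9 lie above it. Krt7, Krt19 and Cldn7 were under 1 in every group, and the grey points leave out genes at that level. Of the genes left out, 9.44% were at least 2-fold lower in CC, against 2.15% of those in grey.

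Divided by exon length, the normalized count per kilobase (kb) in Scd2f/f TAL was 27.4 for Spp1, 1.33 for Cd24a, 1.22 for Sox9, 0.829 for Epcam, 0.716 for Krt23, 0.405 for Krt19, 0.232 for Cldn7 and 0.0619 for Krt7. In CC TAL the order was Spp1 at 8.98 per kb, Sox9 at 0.851, Krt23 at 0.748, Cd24a at 0.325, Epcam at 0.228, Krt19 at 0.110, Cldn7 at 0.102 and Krt7 at 0.0127. Krt23 thus stood below Cd24a and Epcam in Scd2f/f TAL and above both in CC TAL. The length joins all annotated exons of a gene, so the place of a gene depends on it. It was 7.05 kb for Krt7 and 1.95 kb for Cldn7, whose counts in Scd2f/f TAL were 0.436 and 0.451. Whether neighbours in these orders differ beyond their spread could not be tested.

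Promoters are shown for Epcam, Spp1 and Cldn7, which were lower in CC TAL, and for Krt23, which was not. Windows from 250 bases before the transcription start to 50 after it were available for 6 of the 9 genes, from RefSeq on build GRCm38.p6. Each line below gives the 250 bases before the start, 5′ to 3′ on the strand of the gene, in lower case, with matches to a searched motif in capitals. The Krt23 window overlaps an exon of Krt23 by 17 bases.
Epcam, chr17:87635729-87635978, + strand: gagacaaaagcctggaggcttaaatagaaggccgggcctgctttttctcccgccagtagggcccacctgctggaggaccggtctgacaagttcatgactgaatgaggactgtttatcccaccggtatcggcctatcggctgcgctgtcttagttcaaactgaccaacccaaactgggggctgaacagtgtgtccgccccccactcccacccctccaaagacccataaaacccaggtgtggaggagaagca
Spp1, chr5:104434861-104435110, + strand: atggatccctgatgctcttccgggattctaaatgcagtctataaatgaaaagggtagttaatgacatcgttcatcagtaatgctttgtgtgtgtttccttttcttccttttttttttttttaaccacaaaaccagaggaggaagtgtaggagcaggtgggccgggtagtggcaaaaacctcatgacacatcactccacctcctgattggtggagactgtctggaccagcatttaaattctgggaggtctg
Cldn7, chr11:69964529-69964778, + strand: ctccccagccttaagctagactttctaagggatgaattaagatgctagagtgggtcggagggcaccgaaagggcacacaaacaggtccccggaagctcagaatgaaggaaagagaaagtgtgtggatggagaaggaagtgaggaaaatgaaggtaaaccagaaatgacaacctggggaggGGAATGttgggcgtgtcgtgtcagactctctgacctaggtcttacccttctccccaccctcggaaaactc
Krt23, chr11:99493121-99493370, - strand: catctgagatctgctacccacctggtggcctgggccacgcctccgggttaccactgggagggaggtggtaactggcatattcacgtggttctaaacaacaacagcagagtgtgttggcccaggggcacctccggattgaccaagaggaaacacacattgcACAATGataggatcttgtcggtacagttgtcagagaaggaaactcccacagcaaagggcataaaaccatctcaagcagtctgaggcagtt
The motifs searched on both strands were GGAATG of TEAD factors, TGGGAA of RBPJ, ACAATG of SOX factors, AACNGGTT of GRHL factors and TGANTCA of AP-1. A match is a description of letters and not a site of binding. Cldn7 held a single TEAD motif, at position -70 from the start, and Krt23 held a single SOX motif, at position -90. Among 32817 promoters of the same 300 bases, 14.7% held the TEAD motif, 12.6% the SOX motif, 25.6% the RBPJ motif, 7.81% the AP-1 motif and 2.08% the GRHL motif. The Epcam and Spp1 windows held none of these letters. Of the windows not printed, that of Krt7 held none and that of Cldn4 held 2 AP-1 motifs.

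Other genes of the biliary epithelium give the surroundings of these markers. This list and those below were also chosen with earlier results known, so their counts are descriptions only. Of 32 further biliary epithelial genes listed, 26 had means. Of these, 10 were at least 2-fold lower in CC than in Scd2f/f TAL and none was higher, against 4.07% and 1.82% of all genes. The median log2 ratio of the 26 was -0.48. Of the 10, Elf3, Cftr, Ddit4l, Fxyd3 and Itgb4 were under 1 in every group, where 9.44% of genes were lower in CC. With DEN and WAD, 7 of the 26 were at least 2-fold higher and 2 lower in Scd2f/f liver (median 0.52), against 9.37% and 4.69% of all genes. Cftr, the chloride channel of the duct epithelium, had means of 0.336, 0.799 and 0.131, and Tspan8, a tetraspanin of epithelia, had 0.679, 1.49 and 0.306 in untreated liver, Scd2f/f TAL and CC TAL. Ehf and Elf3, epithelial ETS factors, had means of 0.506, 1.44 and 0.38 and of 0.296, 0.699 and 0.272. These low-count genes stood highest in Scd2f/f TAL. All pass the naming rule of at least 2-fold higher with treatment and 2-fold lower in CC, so this peak follows from the choice. Dmbt1, also among the 10 but not picked by that rule, had means of 1.58, 0.153 and 0.0566. Bicc1, an RNA-binding protein of ducts, had 3.12, 5.35 and 1.57. A lower mean in CC was not seen for Pigr, the receptor that carries immunoglobulin A across epithelium, with 638, 903 and 1040. Nor was it seen for Wfdc2, with 0.629, 1.78 and 2.05. The means of Pigr lay far above those of the markers, and which cells its transcripts came from was not tested.

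Of 13 biliary transcription factors and Notch genes with means, 5 were at least 2-fold lower in CC than in Scd2f/f TAL. None was at least 2-fold higher, and the median log2 ratio was -0.31. The shares of all genes were 4.07% lower and 1.82% higher. Of the 5, Hey1, Grhl2 and Foxj1 were under 1 in every group. In Scd2f/f TAL, 4 of the 13 were at least 2-fold higher than in untreated liver, against 9.37% of all genes. Hes1, a Notch target, had means of 2.69, 9.28 and 3.6 and Sox4 had 1.81, 3.79 and 1.76. Of 15 ductular reaction signals, 2 were at least 2-fold lower in CC than in Scd2f/f TAL, against 4.07% of all genes. These were Ltb at 0.715 against 0.352 and Ankrd1 at 0.455 against 0.132, both under 1 in every group. The median log2 ratio of the 15 was -0.23, beside 0 over all genes. Met, with 68.5, 71.4 and 87.3, and Fgfr2, with 19.5, 22.9 and 25.4, were highest in CC TAL. Tnfrsf12a, the TWEAK receptor, had 13.4 in untreated liver, 3.73 in Scd2f/f TAL and 2.08 in CC TAL.

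The keratins of hepatocytes and other claudins were read beside the markers of the same families. Krt8 had means of 273, 138 and 106 and Krt18 had 216, 90.5 and 72.4, so that neither was 2-fold lower in CC than in Scd2f/f TAL, while Krt8 was 2.58-fold and Krt18 2.98-fold lower in CC TAL than in untreated liver. Both have processed pseudogenes, between which reads may be split. None of 7 other claudins differed 2-fold between the TAL of the genotypes. Over all genes, 4.07% were at least 2-fold lower in CC and 1.82% higher, so this count does not set the other claudins apart from all genes. Cldn1 had 20.4, 46.5 and 55.7, and Cldn3 had 33.1, 32.6 and 32.4.

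Marker lists of other liver cell types were read beside these results, and their part in the result was not tested. Over all genes, 4.07% were at least 2-fold lower and 1.82% higher in CC than in Scd2f/f TAL. Of 12 stellate cell and portal fibroblast genes, 9 were at least 2-fold lower in CC than in Scd2f/f TAL and none higher (median log2 ratio -1.28), and their summed mean was 67.0 in untreated liver, 141 in Scd2f/f TAL and 59.5 in CC TAL. Col1a1 had 4.69, 19.6 and 4.51, and Col3a1, the largest part of each sum, had 19.3, 58.6 and 21.6. Lrat, a stellate cell marker, had 15, 19 and 16, and Des had 4.25, 3.29 and 1.98. Lrat, Des and Fbln2, a portal fibroblast marker with 1.27, 1.45 and 0.761, were not among the 9. Of 12 macrophage genes, 5 were at least 2-fold lower in CC (median -0.87), with a summed mean of 108, 436 and 329. Gpnmb had 0.0937, 8.98 and 0.638, whereas Adgre1 had 5.7, 19 and 17.7. Of 12 hepatocyte genes, 1 was higher and none lower in CC (median 0.19), and Alb had 21300, 20900 and 22700. None of the 7 endothelial genes or the 7 B cell and neutrophil genes differed 2-fold between the TAL of the genotypes, with medians of -0.09 and -0.29. No gene of the table was listed at 0, since each group has a lowest mean above 0, such as 0.04 in untreated liver. Of these lists, Ltf and Ngp, both neutrophil genes, were at that lowest mean in untreated liver.

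**Figure D3:**
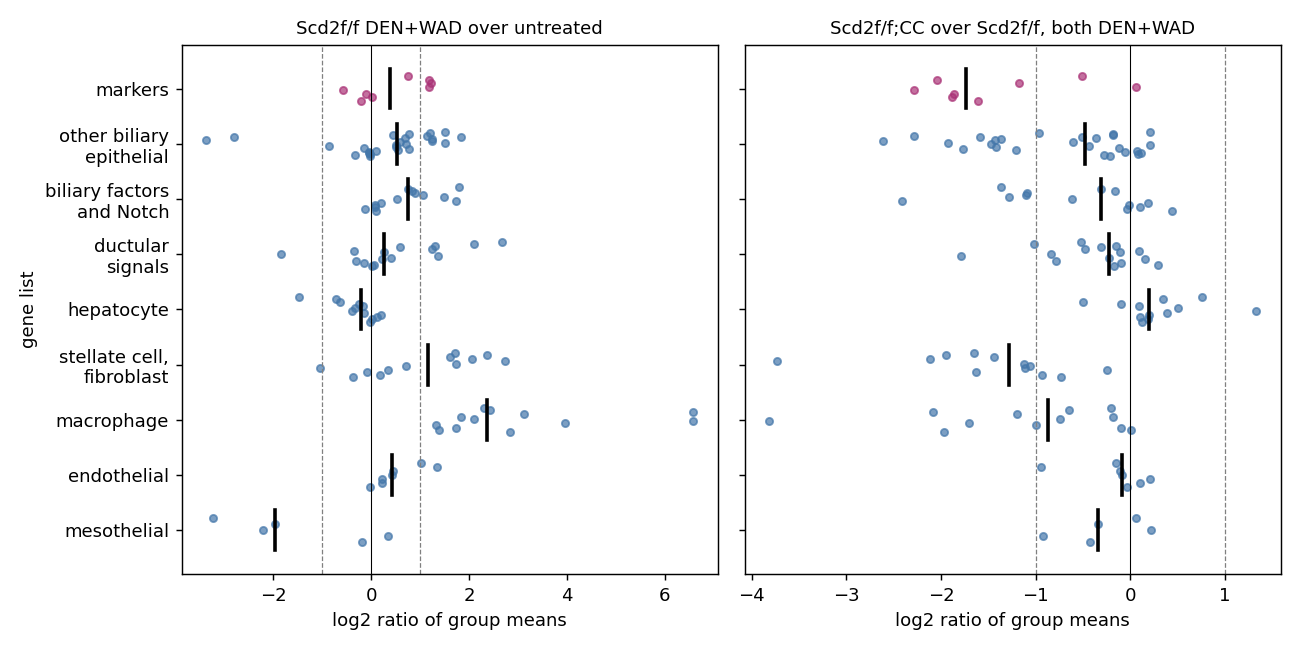
Log2 ratio of means for the genes of 9 lists, each point a gene, in DEN and WAD over untreated Scd2f/f liver and in Scd2f/f;CC over Scd2f/f TAL, with black bars at the median and dashed lines at 2-fold. In the comparison of genotypes, the markers have a median of -1.74 and the stellate cell and fibroblast genes one of -1.28.

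When the means were scaled to their sum over all genes, the log2 ratio of Krt23 between CC and Scd2f/f TAL turned negative at -0.11, and Epcam and Spp1 became higher with DEN and WAD, at log2 ratios of 0.20 and 0.10. That scaling moved the median of all genes by 0.32 for treatment and by -0.17 for genotype on the log2 scale.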

How the data were processed

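Total RNA of liver was isolated with a PicoPure kit and sequenced after polyA selection with TruSeq V2 beads. The authors quantified genes of Gencode M3 by the Partek E/M method, and the submitters' processing notes name STAR 2.6.1, Partek 6 and mm10. Counts were normalized to the upper quartile by the authors and analysed by Gene Specific Analysis. The deposited signal values are least-squares means of each group with 3 significant digits, so the unit is normalized counts. The table also holds p-values, FDR, ratios and fold changes of the authors' comparisons, which were not used. The Scd2f/f DEN+WAD mean was identical in both parts of the table, so the 3 means share 1 scale. Labels give a treatment protocol to all 9 samples, but the untreated group is named by its own treatment label.

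Ratios and log2 ratios were computed with Python 3.11.15, NumPy 2.4.6 and pandas 2.3.3, with no pseudocount, and a limit of 2-fold. The members and lists were chosen with earlier results of these data known. Older symbols were matched through RefSeq synonyms. Exon lengths joined all exons of a gene in GENCODE on GRCm38, from a later release than the one used for counting. Named genes were the members, Scd2, and of each list the genes with the highest and lowest genotype ratios at a mean of at least 1, those higher with treatment and lower in CC, and the 5 nearest to the members' median pattern. Some of these are given by counts only. Bicc1, Dmbt1, Ddit4l, Fxyd3, Itgb4, Hey1, Fbln2, Alb, Ltf, Ngp, Msln and Afp lie outside this rule and were chosen after their values were seen. Scripts were tested on simulated data. Pseudocounts of 0.1 and 1, centring, a filter, and limits of 1.5-fold and 3-fold were alternatives.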

Additional observations from a re-analysis of the deposited data

How the results depend on the processing

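No paired analysis was possible because only group means were analysed, and for the same reason leaving out each replicate in turn was not possible and no error could be attached to any count. With a pseudocount of 1, 0 markers were at least 2-fold higher with DEN and WAD (2.82% of all genes), 2 were lower in CC than in Scd2f/f TAL (0.507% of all genes, median log2 ratio of the markers -0.48), and, against untreated liver, 0 were higher (1.58%) and 1 lower (1.28%) in CC (median -0.49). A pseudocount shrinks the ratios of means near or under it. When a mean of 1 or more was required in either group compared, 3 of the 5 markers left were lower in CC than in Scd2f/f TAL (2.10% of genes left) and 2 of 5 were lower in CC than in untreated liver (3.08%). At a 3-fold limit, 0 markers were higher with DEN and WAD (4.33% of all genes), and 0 were higher in CC than in untreated liver (2.11%). At the same limit, 5 markers were lower in CC than in Scd2f/f TAL (1.30% of all genes). Against untreated liver, 4 were lower in CC (2.02%). A pseudocount of 0.1, centring on the median, a 1.5-fold limit and, chosen after seeing the data, scaling to the sum of means left the counts of markers within 1.5 times, and no median reversed. Centring could not change the comparison of genotypes, whose median over genes was 0, and scaling to the sum moves each of its log2 ratios by -0.17.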

Other observations

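Over all genes, 9.37% were at least 2-fold higher and 4.69% lower with DEN and WAD. Between genotypes, 1.82% were higher and 4.07% lower in CC. The erythroid genes, 7 in the table, had a summed mean of 321 in untreated liver, 126 in Scd2f/f TAL and 224 in CC TAL. Of them, 3 were at least 2-fold higher in CC than in Scd2f/f TAL. Of 5 pancreatic exocrine genes, 4 were at least 2-fold lower in CC and 1 was higher. In CC, Ctrb1, Amy2a5 and Cel were at 0.0349, the lowest mean of that group, which 151 genes share, so these are not measured levels. Cela1, a pancreatic elastase, had means of 15.4, 3.4 and 6.87 and Ctrb1, a chymotrypsinogen, 0.0656, 0.264 and 0.0349. Of 8 liver tumor and fetal liver genes, 5 were at least 2-fold higher with DEN and WAD and 3 were lower in CC than in Scd2f/f TAL. Ly6d had means of 1.71, 14.5 and 1.59, and Afp, the fetal serum protein, 1.21, 2.47 and 1.61. Of 5 mesothelial genes, 3 were at least 2-fold lower with DEN and WAD, and Msln had 0.796, 0.0853 and 0.0887. Of 3 other keratins in the table, 1, Krt20, was lower in CC than in Scd2f/f TAL, with its CC mean also at that lowest value. Its untreated mean of 0.04 was the lowest mean of the untreated group as well.

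The 5 genes whose pair of log2 ratios lay nearest to the median of the biliary markers (0.38 and -1.74), among the 11893 genes that reached 1 in Scd2f/f TAL, were Htra3, Sardhos, Fmod, Cxcl1 and Thsd4, with distances of 0.135 to 0.248. Htra3 had means of 0.918, 1.17 and 0.385, Fmod, a small matrix proteoglycan, 0.957, 1.11 and 0.315, and Cxcl1, a neutrophil chemokine, 11.8, 17.5 and 5.04 in untreated liver, Scd2f/f TAL and CC TAL.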
